A study of Mus musculus with 6 samples.

Results

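The regions described here are the intergenic TERT regions that lie near genes, outside repeats and CpG islands. They are the regions on chromosomes 1 to 19 and X that the deposited annotation calls intergenic, that lie at most 100 kb from the nearest transcription start site, and whose detailed annotation names neither a repeat element nor a CpG island. This rule took 5899 of 41515 regions (14.2%), called members below. The study mapped TERT by CUT&Tag in primary neurons of the cortex and hippocampus of C57BL/6 embryos aged E15-18. Cells had been kept for 24 h with 2 µM BIBR1532, a small-molecule telomerase inhibitor (3 samples), or with the vehicle dimethyl sulfoxide (3 samples). Both groups share the strain, tissue, age and anti-TERT antibody, and 1 label field calls the vehicle samples untreated. Primary cultures of this kind can hold cells other than neurons, and the lists carry no expression by which the labelled cell type could be checked.

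The libraries of each condition were pooled before the regions were sorted into 3 lists. The BIBR1532 list holds regions called higher in the BIBR1532 pool and the vehicle list those called higher in the vehicle pool. Both are called condition-specific below, and the third list is common to both pools. Which pool is which was read from the order of the conditions in the names of the lists, so the direction is likely and not stated outright. Members made up 2482 of 16149 regions of the BIBR1532 list, 2918 of 18554 regions of the vehicle list and 499 of 6812 regions of the common list. Each condition is 1 pooled measurement, so a test on region counts compares the deposited lists and not the conditions. All p-values below are from two-sided Fisher's exact tests unless another test is named. Those called adjusted were corrected by Benjamini-Hochberg over 38 such tests, of which 20 had an adjusted p under 0.05.

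TERT is the reverse transcriptase subunit of telomerase, which copies the RNA subunit Terc into telomere repeats, and it has also been described on chromatin away from telomeres. DNA between genes holds enhancers and insulators that can act on a start site from a distance, as well as unannotated promoters, pseudogenes and genes of small RNAs. CUT&Tag cuts and tags DNA beside an antibody-bound protein, and the same transposase also cuts open chromatin to some extent.

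Some members called intergenic in the deposited annotation overlap windows about start sites in the RefSeq table of the same build. Windows of 300 bases about RefSeq start sites (250 before to 50 after, GRCm38.p6) are shown here because they carry that finding. Capitals mark the GC box, the Sp1-family binding motif GGGCGG, or its reverse complement CCGCCC. The windows are examples chosen after their values were seen, and do not show how often the motif occurs. A window is said to lie under a member that overlaps any part of it. The member need not reach the start site or the marked motifs. The Eif2ak1 member ends at chr5:143817647 and the Eps8l1 member begins at chr7:4460732, and neither reaches the start site or the capitals. The same holds for the Fbxl19 member, which ends at chr7:127746185. The Ip6k2 member, which ends at chr9:108783786, and both Gm46430 members do not reach the start site. The first belongs to Eif2ak1, the heme-regulated eIF2α kinase, under the common member of highest score. Next are Ip6k2, an inositol hexakisphosphate kinase, Fbxl19, a CpG-binding F-box protein, and the lncRNA gene Gm33560, which holds 2 common members. The predicted genes Gm38523 and Gm46430 each lie under 1 BIBR1532 and 1 common member, Eps8l1, an actin regulator, lies under a BIBR1532 member, and Dll1, a Notch ligand, lies under a vehicle member.
Eif2ak1: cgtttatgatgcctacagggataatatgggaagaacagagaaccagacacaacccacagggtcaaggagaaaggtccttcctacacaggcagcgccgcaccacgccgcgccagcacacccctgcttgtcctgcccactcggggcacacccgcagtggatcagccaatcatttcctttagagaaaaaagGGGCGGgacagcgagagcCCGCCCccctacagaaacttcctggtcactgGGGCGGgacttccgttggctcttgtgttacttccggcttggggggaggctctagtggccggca
Ip6k2: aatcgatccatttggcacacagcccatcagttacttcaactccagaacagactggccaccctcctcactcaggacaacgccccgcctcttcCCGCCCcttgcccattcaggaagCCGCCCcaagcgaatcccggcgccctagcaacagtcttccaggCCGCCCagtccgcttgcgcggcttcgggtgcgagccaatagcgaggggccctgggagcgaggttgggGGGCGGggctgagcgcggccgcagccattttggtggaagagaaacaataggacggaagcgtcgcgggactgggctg
Fbxl19: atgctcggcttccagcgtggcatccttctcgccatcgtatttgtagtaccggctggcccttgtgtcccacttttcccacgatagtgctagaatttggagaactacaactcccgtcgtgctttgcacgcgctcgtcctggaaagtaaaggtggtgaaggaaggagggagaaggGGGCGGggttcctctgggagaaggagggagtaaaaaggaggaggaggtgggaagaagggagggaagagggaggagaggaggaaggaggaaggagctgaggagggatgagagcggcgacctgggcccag
Gm33560: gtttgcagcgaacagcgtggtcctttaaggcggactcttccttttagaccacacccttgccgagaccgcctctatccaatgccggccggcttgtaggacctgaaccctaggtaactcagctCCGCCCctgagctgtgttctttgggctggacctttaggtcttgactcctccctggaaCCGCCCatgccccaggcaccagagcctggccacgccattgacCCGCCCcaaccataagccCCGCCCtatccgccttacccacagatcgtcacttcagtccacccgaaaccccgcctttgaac
Gm38523: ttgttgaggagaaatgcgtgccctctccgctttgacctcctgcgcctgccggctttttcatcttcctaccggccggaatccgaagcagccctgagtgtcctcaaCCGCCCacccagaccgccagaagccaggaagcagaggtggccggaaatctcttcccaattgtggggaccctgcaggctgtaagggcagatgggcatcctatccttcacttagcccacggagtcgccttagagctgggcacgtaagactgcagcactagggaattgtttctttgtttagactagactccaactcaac
Gm46430: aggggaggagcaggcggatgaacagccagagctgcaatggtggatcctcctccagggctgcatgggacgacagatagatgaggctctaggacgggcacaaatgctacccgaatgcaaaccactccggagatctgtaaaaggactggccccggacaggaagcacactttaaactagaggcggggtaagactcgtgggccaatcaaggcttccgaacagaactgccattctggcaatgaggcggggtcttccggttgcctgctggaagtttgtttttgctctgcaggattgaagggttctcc
Eps8l1: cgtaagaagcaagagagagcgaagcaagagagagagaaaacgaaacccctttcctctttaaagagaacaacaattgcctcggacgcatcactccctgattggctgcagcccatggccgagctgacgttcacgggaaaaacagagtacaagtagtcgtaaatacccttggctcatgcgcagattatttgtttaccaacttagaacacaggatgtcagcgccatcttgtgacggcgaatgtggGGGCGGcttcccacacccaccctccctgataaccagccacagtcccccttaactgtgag
Dll1: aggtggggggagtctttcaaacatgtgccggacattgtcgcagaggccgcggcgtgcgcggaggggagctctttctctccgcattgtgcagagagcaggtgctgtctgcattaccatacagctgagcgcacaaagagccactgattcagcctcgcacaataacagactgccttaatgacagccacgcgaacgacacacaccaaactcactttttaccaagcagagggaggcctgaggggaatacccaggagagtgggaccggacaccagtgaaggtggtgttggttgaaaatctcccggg

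The windows stand on chr5:143817542-143817841 (plus strand, Eif2ak1), chr9:108783562-108783861 (plus, Ip6k2), chr7:127746028-127746327 (plus, Fbxl19), chr7:141122981-141123280 (plus, Gm33560), chr8:111062132-111062431 (minus, Gm38523), chr13:74617272-74617571 (minus, Gm46430), chr7:4460447-4460746 (plus, Eps8l1) and chr17:15376883-15377182 (minus, Dll1). Eif2ak1 holds 3 GC boxes, Ip6k2 and Gm33560 hold 4 each, Fbxl19, Gm38523 and Eps8l1 hold 1 each, and Gm46430 and Dll1 hold 0. The Eif2ak1 and Ip6k2 members name these same genes as nearest, yet at 54337 and 12359 bp upstream of the start site used in the deposited annotation. At Gm46430 the BIBR1532 member (chr13:74617535-74617927) begins at the base after the common member (chr13:74617337-74617534).

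The BIBR1532 share of members was close to that of other regions over all widths, and lower in 1 of the alternatives run, that of wide regions. The BIBR1532 list held 2482 of 5400 condition-specific members (46.0%), against 46.6% of the other condition-specific regions (odds ratio 0.973, 95% interval 0.918 to 1.03, adjusted exact p = 0.431, two-sided Fisher's exact test). Over all condition-specific regions the share was 46.5%. Where regions spanned 500 bp or more, the share was 43.3% of 862 members, against 48.4% of 4512 other regions (odds ratio 0.813, unadjusted exact p = 0.00588, Fisher's exact test). The other alternatives gave odds ratios from 0.966 to 1.01, each with an unadjusted exact p of 0.275 or more in the same test. Over all widths, the share was 45.3% in gene deserts, that is intergenic regions beyond 100 kb outside repeats (adjusted exact p = 0.614). It was 46.6% in introns outside repeats (adjusted exact p = 0.461). No chromosome of 20 passed after adjustment over chromosomes (0% called), with 1 at an unadjusted p under 0.05: chromosome 18, where 72 of 196 condition-specific members were in the BIBR1532 list (36.7%, exact p = 0.00853, adjusted exact p = 0.171).

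Few members were called common to both pools, which does not make the other members absent from either pool. The common list held 499 of 5899 members (8.46%), against 17.7% of the other regions (odds ratio 0.429, 95% interval 0.390 to 0.472, adjusted exact p = 2.28e-79, Fisher's exact test) and 16.4% of all regions. In the gene deserts the share was lower still, with 128 of 3082 regions (4.15%, odds ratio 2.13, 95% interval 1.75 to 2.60, adjusted exact p = 2.75e-14). Promoter regions, of which the annotation holds 7058, made up 51.9% of the common list.

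Members of all 3 lists lay mostly upstream of start sites, a side that the rule favours, since an intergenic region cannot lie in the gene body just downstream. The annotation counts the 1 kb before a start site as promoter, and the nearest members stood 1001 bp (BIBR1532), 1013 bp (vehicle) and 1051 bp (common) away. The median distance was 24874 bp in the BIBR1532 list and 27459 bp in the vehicle list, and 19433 bp in the common list. Upstream members made up 68.9% of the BIBR1532 list, against 67.1% of the vehicle list (adjusted exact p = 0.234), and 70.5% of the common list. In gene deserts the shares were 51.7%, 49.2% and 44.5% in the same lists. Gene deserts are set by distance to the start site only, and 17.8%, 16.5% and 52.3% of their regions overlapped a RefSeq gene. At the limit of the rule, the last members inside lay nearest Gm29678 (99844 bp), 1700006H21Rik (99931 bp) and Hfm1 (99985 bp), all in the vehicle list. The first regions outside lay nearest 4931429L15Rik (100032 bp, vehicle), Mrps6 (100038 bp, BIBR1532) and 2900079G21Rik (100103 bp, BIBR1532).

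**Figure D1:**
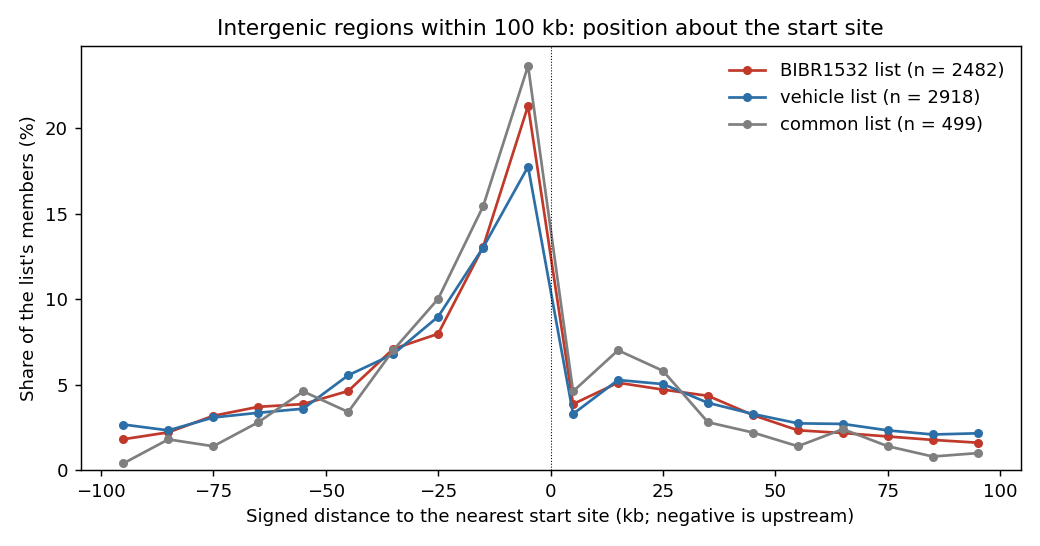
Share of each list's members (%) in bins of 10 kb of signed distance to the nearest start site (kb, negative upstream), with 1 line for each deposited list. The bin from 10 kb upstream to the start site holds 21.3% of BIBR1532 members, against 17.8% of vehicle members, and 23.6% of common members, the highest bin of each list.

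The BIBR1532 share was higher close to genes. Within 10 kb of a start site the BIBR1532 list held 625 members and the vehicle list 614, a BIBR1532 share of 50.4% (95% exact interval 47.6 to 53.3), against 44.6% of the members farther out (odds ratio 1.26, 95% interval 1.11 to 1.43, exact p = 0.00106 adjusted over the 3 distance bins, Fisher's exact test). The share was 45.1% at 10 to 50 kb (1245 and 1514 members, adjusted exact p = 0.209) and 43.7% at 50 to 100 kb (612 and 790 members, adjusted exact p = 0.0694). In each condition-specific list 1 score was shared by a large block of members: 1218 of 2482 BIBR1532 members (49.1%) scored 6.34096 and 1531 of 2918 vehicle members (52.5%) scored 5.1902. Without these members the odds ratio of the BIBR1532 share within 10 kb was 1.11 (exact p = 0.248, Fisher's exact test), and among members of at least 500 bp it was 0.928 (exact p = 0.723). By score, the odds ratio within 10 kb was 0.710 below these scores (adjusted exact p = 0.153), 1.43 at them (adjusted exact p = 0.000557) and 1.20 above them (adjusted exact p = 0.274). Below them the BIBR1532 share was 65.0% within 10 kb, 71.0% at 10 to 50 kb and 75.9% at 50 to 100 kb, so the direction differed between score ranges.

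**Figure D2:**
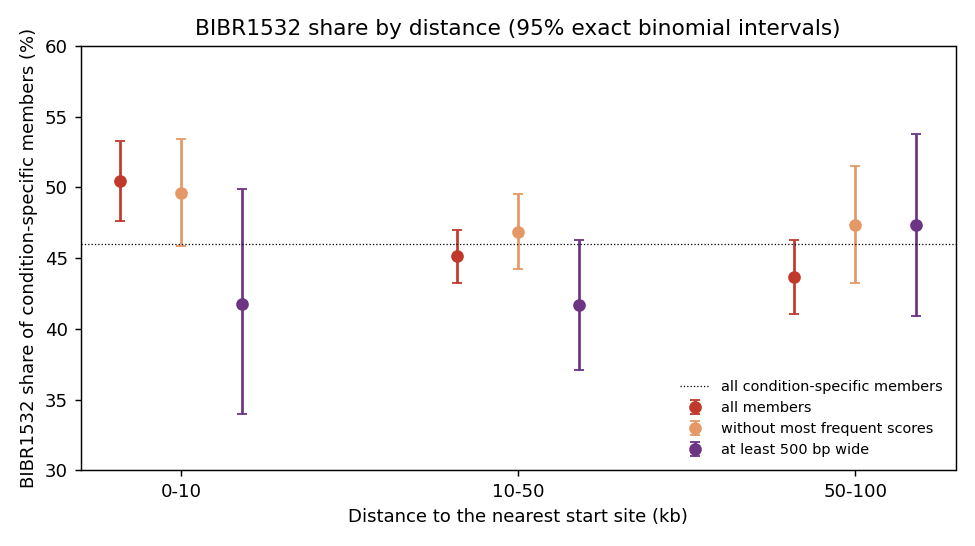
BIBR1532 share of condition-specific members (%) by distance to the nearest start site (kb), for all members, without those at the score most often given in their list, and for members of at least 500 bp. Points are shares and bars are 95% exact binomial intervals, the axis starts at 30%, and the dotted line is the share over all condition-specific members, 46.0%.

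Members were short. The median width was 250 bp in the BIBR1532 list and 248 bp in the vehicle list, and 228 bp in the common list, and the members covered 993 kb, 1208 kb and 133 kb in these lists. Members of at least 500 bp made up 15.0% of the BIBR1532 list, against 16.8% of the vehicle list (adjusted exact p = 0.126, Fisher's exact test). They were 16.0% of condition-specific members, against 22.9% in gene deserts (odds ratio 0.639, 95% interval 0.571 to 0.715, adjusted exact p = 5.84e-14). No common member reached 2000 bp (0 of 499, at most 0.737% by the exact interval), against 125 of 5400 condition-specific members (2.31%).

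The widest members of the BIBR1532 list lay nearest Gm6634 (16454 bp), Hrnr, the hornerin gene of skin (15860 bp), and Zfp42, the stem-cell factor Rex1 (10060 bp). In the vehicle list they lay nearest Gm4836 (16016 bp), Plppr4, a phospholipid phosphatase-related protein of synapses (9612 bp), and Nfkb1, a subunit of NF-kB (8673 bp). The deposited score, the authors' own value for each region, ranks members within a list only. What it measures is not given. Common members scored 0.00191 to 0.863, while the lowest scores were 1.09 in the BIBR1532 list and 1.16 in the vehicle list. The names of the lists carry a threshold of 1, which lies between. A high common score may thus mark a region close to being called different, and need not mark a strong shared site. The BIBR1532 members of highest score lay nearest Nfkbia (19.2), 1810046K07Rik (18.8), Batf2 (18.1), Htr2c (17.2) and Emid1 (17.1). The vehicle members of highest score lay nearest Ift81 (25.9), 1700061F12Rik (20.1), Kctd1 (19.3), Tmem173, the innate immune adaptor STING (18.9), and H2afy3 (15.8).

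Common members overlapped pseudogenes more often than condition-specific ones. Pseudogenes are disabled gene copies, many of them made by reverse transcription of a messenger RNA. In the common list 115 of 499 members (23.0%) overlapped a RefSeq pseudogene, against 133 of 5400 condition-specific members (2.46%, odds ratio 11.9, 95% interval 9.05 to 15.5, adjusted exact p = 2.02e-59, Fisher's exact test). The difference between the condition-specific lists did not pass the test, with 53 BIBR1532 members (2.14%) against 80 vehicle members (2.74%, odds ratio 0.774, 95% interval 0.545 to 1.10, adjusted exact p = 0.216). The share among common members was 19.9% within 10 kb of a start site, 23.9% at 10 to 50 kb and 25.6% at 50 to 100 kb, each against under 3% of condition-specific members at that distance. Gene deserts had 42 of 128 common regions on pseudogenes (32.8%, adjusted exact p = 0.0532 for the difference from common members), with 1.74% of BIBR1532 and 1.89% of vehicle gene-desert regions outside chromosome 18. Common intron regions had 7.10% (odds ratio 3.92, adjusted exact p = 2.55e-14).

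The 115 common members lay in 105 pseudogenes with a median length of 880 bp, and 17 of the 105 carry the symbol of a ribosomal protein. Such symbols were 3 of the 55 pseudogenes under BIBR1532 members, against 4 of the 76 under vehicle members, and 320 of all 10328 pseudogenes in the RefSeq table used (3.10%). These differences were not tested, and the symbols were picked after their values were seen. Of the 5 common members of highest score, 3 lay in a pseudogene: Rpsa-ps2 (0.802, chr10:128776491-128776704, nearest Mmp19), Rpl9-ps6 (0.745, chr19:32466296-32466445, nearest Minpp1) and Gm6477 (0.698, chr10:39198512-39198730, nearest Ccn6). The others were the Eif2ak1 member (0.863) and one nearest Mn1 (0.713). As stated above, a high common score need not mark a strong shared site. The 3 common members nearest Cd28, a co-stimulatory receptor of T cells, all lay in Eif4a-ps4, a copy of a translation initiation factor gene (1778 bp). Their scores were 0.511, 0.292 and 0.214.

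Several pseudogenes held members of more than 1 list. Gm15459, a pseudogene of 2105 bp nearest Steap1, held 3 common members with vehicle members at both ends (chr5:5781697-5781928 and chr5:5783297-5783516, scores 1.57 and 1.78). Gpx4-ps2, a copy of the gene for glutathione peroxidase 4, held 2 common and 1 vehicle member, and Rpl9-ps6 held 1 common and 2 vehicle members. Rbm3-ps and Psma5-ps each held 1 BIBR1532 and 1 common member. Reads from near-identical copies can be placed on any of them, and how the authors treated such reads is not given in the sources here, so values on pseudogenes are uncertain.

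**Figure D3:**
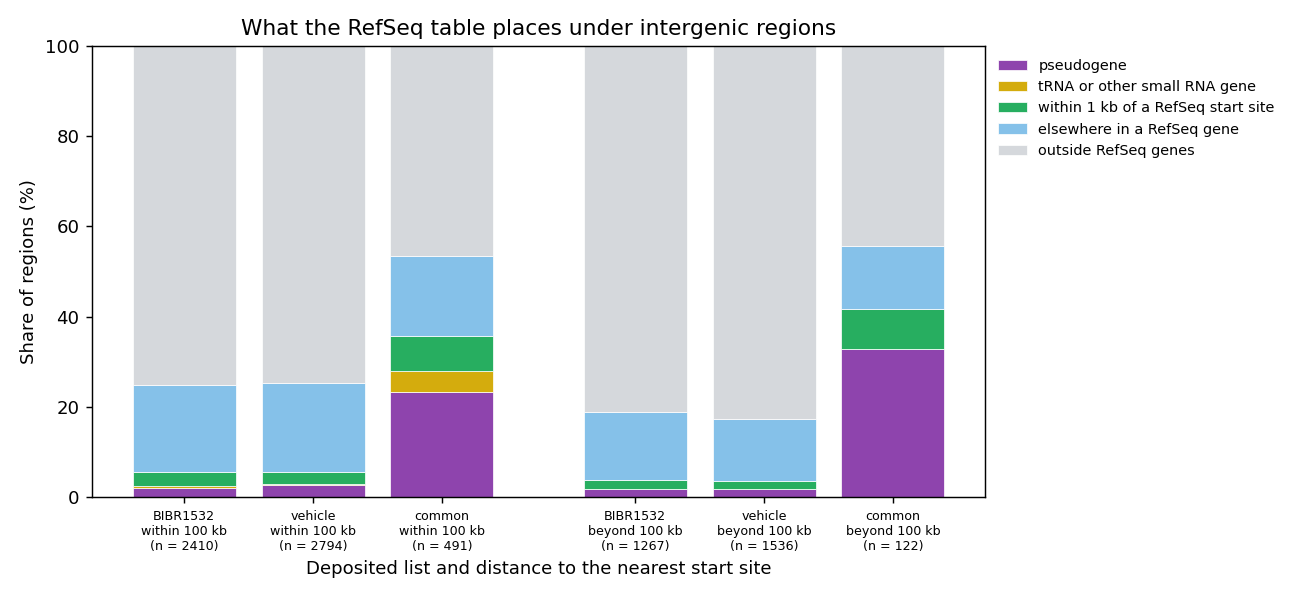
Share of regions (%) by what the RefSeq table places there, counted for the first category that applies from the bottom of the bar upward, in each deposited list within 100 kb of a start site and in gene deserts beyond 100 kb. Among members, 23.4% of the common list lies on pseudogenes, against 2.16% of the BIBR1532 list and 2.76% of the vehicle list (chromosome 18, without promoter windows here, is left out).

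Transfer RNA genes were a further site of common members. RNA polymerase III transcribes these short genes, which mostly stand in clusters between other genes. In the common list 17 of 499 members (3.41%) overlapped at least 1 tRNA gene, against 8 of 5400 condition-specific members (0.148%, odds ratio 23.8, 95% interval 10.2 to 55.4, adjusted exact p = 1.08e-12, Fisher's exact test). The condition-specific ones were 5 in the BIBR1532 list, against 3 in the vehicle list (adjusted exact p = 0.524). The gene deserts had 0 of 128 common regions on a tRNA gene, at most 2.84% by the exact interval (adjusted exact p = 0.0532 for the difference).

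The 17 common members covered 20 tRNA genes, and 4 of them stood on chromosome 13. The widest common member (953 bp, chr11:58301851-58302803, nearest Zfp692) covered n-TEctc10 and n-TLcaa3. Nearest Trim27, common members overlapped n-TLcaa1 and n-TKctt28 and a BIBR1532 member overlapped n-TLcaa4 (chr13:21172814-21173259, score 5.599). Nearest Shf, a BIBR1532 member on n-THgtg3 (chr2:122377384-122377508) stood beside a common member on n-THgtg5 (chr2:122377548-122377976). Nearest Trim55 a BIBR1532 member on n-TRacg3 (chr3:19627966-19628146) stood beside a common member on n-TYgta1 and n-TYgta2 (chr3:19628159-19628835). Near-identical tRNA genes also share reads.

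RefSeq genes of any kind were also overlapped more often by common members, and RefSeq start sites were more often near them. Any RefSeq gene, pseudogenes included, was overlapped by 257 common members (51.5%), against 1326 condition-specific members (24.6%, odds ratio 3.26, adjusted exact p = 1.60e-33, Fisher's exact test). Without members on pseudogenes and small RNA genes the shares were 33.1% of common members and 22.5% of condition-specific ones (odds ratio 1.71, 95% interval 1.36 to 2.15, adjusted exact p = 2.13e-05). By kind of gene, neither contrast passed over all members. The shares by kind are again of all 499 common and 5400 condition-specific members, those on pseudogenes and small RNA genes included. Which kind of gene carries the odds ratio of 1.71 was not tested, since the kinds were not compared without those members. Protein-coding genes held 9.82% of common members, against 7.39% of condition-specific ones (odds ratio 1.36, exact p = 0.0522), and lncRNA genes 15.8% against 15.0% (odds ratio 1.07, exact p = 0.601, Fisher's exact test). A RefSeq start site lay within 1 kb of the centre of 44 of 491 common members (8.96%), against 151 of 5204 condition-specific members (2.90%, odds ratio 3.29, adjusted exact p = 4.78e-09).

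The share of common regions stayed higher near genes than in gene deserts when regions on pseudogenes and small RNA genes were left out. It was 362 of 5616 members (6.45%), against 86 of 2986 gene-desert regions (2.88%, odds ratio 2.32, 95% interval 1.83 to 2.95, adjusted exact p = 8.67e-13, Fisher's exact test).

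Promoter windows under common members were richer in GC boxes. Windows of RefSeq start sites were overlapped by 28 of 491 common members (5.70%), against 68 of 5204 condition-specific members (1.31%, odds ratio 4.57, adjusted exact p = 1.29e-08, Fisher's exact test). GGGCGG, searched on both strands, stood in 13 of the 29 windows under common members (44.8%), against 12 of the 76 windows under condition-specific members only (15.8%, odds ratio 4.33, exact p = 0.0352 adjusted over 9 motifs). It stands in 35.9% of all 32619 windows and in 16.3% of the 11574 windows of lncRNA genes, and lncRNA windows were 19 of 29 under common members, against 69 of 78 under condition-specific members. Mean GC content was 54.3% in the windows under common members, against 49.8% under condition-specific members only. Windows of alternative starts of 1 gene can overlap, as at Gm13261, and the motif tests count them as independent. The 29 windows under common members belong to 28 genes and the 78 under condition-specific members to 68 genes. A count by gene was not run. The telomere repeat unit TTAGGG stood in 0 of 29 and 11 of 76 of these windows (adjusted exact p = 0.146) and in 10.6% of all windows.

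Lists also met at single sites. A region of the other condition-specific list lay within 1 kb of 236 of 5400 condition-specific members (4.37%), against 3.22% in gene deserts (odds ratio 1.38, 95% interval 1.08 to 1.75, adjusted exact p = 0.0196, Fisher's exact test) and 4.75% of all other condition-specific regions (adjusted exact p = 0.296). The difference from gene deserts was lost at a distance of 200 bp (odds ratio 1.01, exact p = 1) and turned round among regions of at least 500 bp (odds ratio 0.156, exact p = 0.0929). No BIBR1532 member adjoined or overlapped a vehicle region. A common region lay within 1 kb of 178 condition-specific members (3.30%), against 1.46% in gene deserts (odds ratio 2.31, 95% interval 1.65 to 3.23, adjusted exact p = 6.36e-07). The common region adjoined or overlapped 21 of 2482 BIBR1532 members (0.846%), against 31 of 2918 vehicle members (1.06%). Upstream of Gad2, the gene of the GABA-producing enzyme GAD65, 3 common members alternated with 2 BIBR1532 members over chr2:22588836-22590201, where RefSeq has Myo3a.

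Members named 3998 genes as nearest, of which 3997 matched the RefSeq table by gene ID. The nearest gene was protein-coding for 76.3% of BIBR1532 members, against 74.5% of vehicle members (adjusted exact p = 0.192, Fisher's exact test), and for 75.7% of all members, against 68.0% in gene deserts (adjusted exact p = 6.14e-14). Of these genes 2746 (68.7%) had 1 member and 53 had 5 or more. Genes with both a BIBR1532 and a vehicle member numbered 660, which is 32.3% of the BIBR1532 genes and 27.8% of the vehicle genes. For scale, 8.4% of all 21631 protein-coding genes had a vehicle member and 7.38% a BIBR1532 member. The overlap, which also counts noncoding genes, was not tested. No gene passed a test of its BIBR1532 share after adjustment over 3757 genes (exact binomial test, 0% called), and 6 had an unadjusted p under 0.05. Members per gene were too few for any gene to pass, and the smallest unadjusted p was 0.0446. The test therefore cannot show whether a gene departed from the overall share.

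Irf2bp2, a transcriptional corepressor, had the most members. Its 4 BIBR1532 members had scores of 2.35, 6.85, 2.00 and 4.44. Its 3 vehicle members scored 2.44, 5.62 and 7.14 and its 2 common members 0.0989 and 0.678, and scores cannot be compared between lists. All 4 BIBR1532 members lay upstream of Irf2bp2, at 1531 to 73061 bp, and all 3 vehicle members downstream of its start site, at 9150 to 55439 bp. Gse1, a subunit of a histone deacetylase complex, had 4 BIBR1532 members, 3 vehicle members and 1 common member, all upstream. There the lists alternated along chr8:120416505-120466638, with facing edges of vehicle and BIBR1532 members 133 bp and 517 bp apart.

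Nfkbia encodes IκBα, the inhibitor that holds NF-kB in the cytoplasm. It had 4 BIBR1532 members (scores 6.37, 19.2, 7.35 and 6.34), 1 vehicle member (6.54) and 1 common member (0.402), each score on the scale of its own list. The member of score 19.2 (chr12:55464856-55465479), the highest of all BIBR1532 members, lay 27480 bp downstream of the Nfkbia start site, 255 bp from the common member. Zmiz1, a SUMO ligase-like coactivator, had 4 BIBR1532 members and 2 vehicle members, all upstream at 47025 to 87517 bp.

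**Figure D4:**
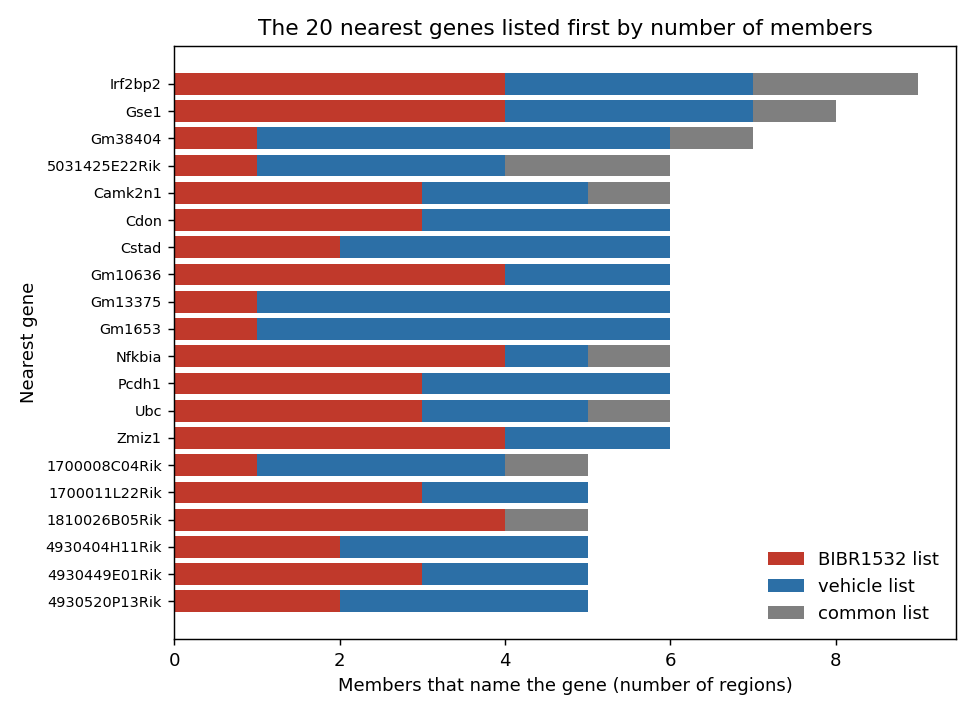
Number of members naming each gene as nearest, stacked by deposited list, for 20 genes with the most members (ties by symbol). Irf2bp2 has 9, Gse1 8 and Gm38404 7.

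Some genes had members of 1 condition-specific list only. With so few members the binomial test could not separate them from the overall share (adjusted exact p = 1 for each). Atxn1, the ataxin gene of spinocerebellar ataxia, had 4 BIBR1532 members (scores 11.5, 6.34, 4.71 and 6.34) and no vehicle member. Pdc, the phosducin gene of photoreceptors, had 4 BIBR1532 members, 3 of them side by side, and a common member between these and the fourth. Olig2, which sets oligodendrocyte fate, had 4 vehicle members upstream (6.02, 1.69, 5.19 and 7.72) and no BIBR1532 member, and its neighbour Olig1 had 1 BIBR1532 member and 3 vehicle members.

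Gene groups were described by how many of their genes were nearest gene of a member. Over all 21631 protein-coding genes 7.38% had a BIBR1532 member, against 8.4% with a vehicle member, 1.66% had a common member, and 14.5% had any. Of the condition-specific members of these genes, 46.5% were in the BIBR1532 list. The exact interval of this share included 46.5% in every gene group below. It ran from 12.6% to 51.1% for cell adhesion and from 9.69% to 53.5% for axon guidance. For the cortical and hippocampal neuron transcription factors it ran from 42.19% to 78.15%. The split of a group between the lists was not tested. Genes with a member had more space free of other protein-coding genes: the median of that space, taken up to 100 kb each side, was 103 kb for genes with a member and 40.8 kb for those without. Members numbered 3.08 per 1000 kb of free space over all protein-coding genes. In the groups this density was lowest for endothelial and mural markers and for the glutamate and GABA receptors (1.48), and reached 8.38 for the immediate early genes and 10.7 for the oligodendrocyte lineage markers, with no test. The last value rests mostly on the neighbouring genes Olig1 and Olig2, with 4 members each.

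The cortical and hippocampal neuron transcription factors had a member at 21 of 44 genes (47.7%), with 19 BIBR1532, 12 vehicle and 3 common members, a median free space of 200 kb and 4.86 members per 1000 kb. Lmo4, a LIM-only cofactor of cortical neurons, had 3 BIBR1532 members, all at the score most often given in that list, at 61454 to 84577 bp. Sox5 had 2 BIBR1532 members and 1 vehicle member, and Mef2a, an activity-dependent factor, 1 BIBR1532 member and 2 vehicle members. The interneuron and subpallial factors had a member at 9 of 20 genes, with 6 BIBR1532, 7 vehicle and 2 common members (112 kb, 6.83 per 1000 kb).

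Immediate early genes, which neuronal activity switches on within minutes, had a member at 14 of 27 genes (51.9%), with 12 BIBR1532, 6 vehicle and 6 common members and a median free space of 105 kb. Klf2, a zinc finger factor, had 3 BIBR1532 members upstream at 3163 to 37312 bp (scores 6.76, 6.34 and 6.34). Btg2, an antiproliferative gene, had 2 BIBR1532 members downstream of its start site (8.50 and 11.7). Egr1 had 3 common members within 25255 to 26077 bp downstream of its start site (scores 0.0152, 0.0102 and 0.356). Fos had 1 member in each list, at 18193 bp downstream (BIBR1532, 11.03), 47648 bp upstream (vehicle, 7.33) and 18236 bp upstream (common, 0.145).

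Wnt ligands and receptors had a member at 17 of 32 genes (53.1%), with 13 BIBR1532, 12 vehicle and 1 common member, a median free space of 112 kb and 7.28 members per 1000 kb. Fzd5, a Frizzled receptor, had 2 BIBR1532 members, and Wnt7a, a ligand of the developing cortex, had 2 BIBR1532 members and 1 vehicle member of 1817 bp. The cell adhesion genes had 7 BIBR1532, 17 vehicle and 2 common members at 14 of 45 genes (200 kb, 3.14 per 1000 kb), and the axon guidance genes 5, 13 and 2 at 14 of 39 genes (167 kb, 3.53 per 1000 kb). Dcc, the netrin receptor, had 2 vehicle members of 4003 and 2297 bp, and Ephb1, an ephrin receptor, had 1 BIBR1532 member and 2 vehicle members. Receptors of glutamate and GABA had 2 BIBR1532 members and 5 vehicle members at 6 of 31 genes (175 kb), and the voltage-gated ion channels 4 and 7, with 1 common member, at 11 of 26 genes (144 kb, 3.41 per 1000 kb).

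The telomerase and shelterin genes had 2 BIBR1532 members and 3 vehicle members at 4 of 19 genes (34.0 kb, 6.36 per 1000 kb). Terc, the telomerase RNA, had 1 BIBR1532 member (chr3:96402433-96403167, score 7.73) 12033 bp downstream of its start site. A vehicle region near Terc (chr3:96425619-96425821, score 9.58, signed distance -10887 bp) is no member, because it lies in a repeat. Pinx1, an inhibitor of telomerase, had 1 BIBR1532 member at 18590 bp, while Stn1, which caps telomere ends, had 2 vehicle members at 8105 and 19748 bp and Terf1, a shelterin subunit, had 1 vehicle member at 14158 bp. Tert and Myc had no member, though each had a region of another class. For Tert it was a BIBR1532 region called exon (chr13:73628142-73628436, score 6.34). For Myc it was a vehicle region called intron (chr15:61986994-61987341, score 20.2).

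**Figure D5:**
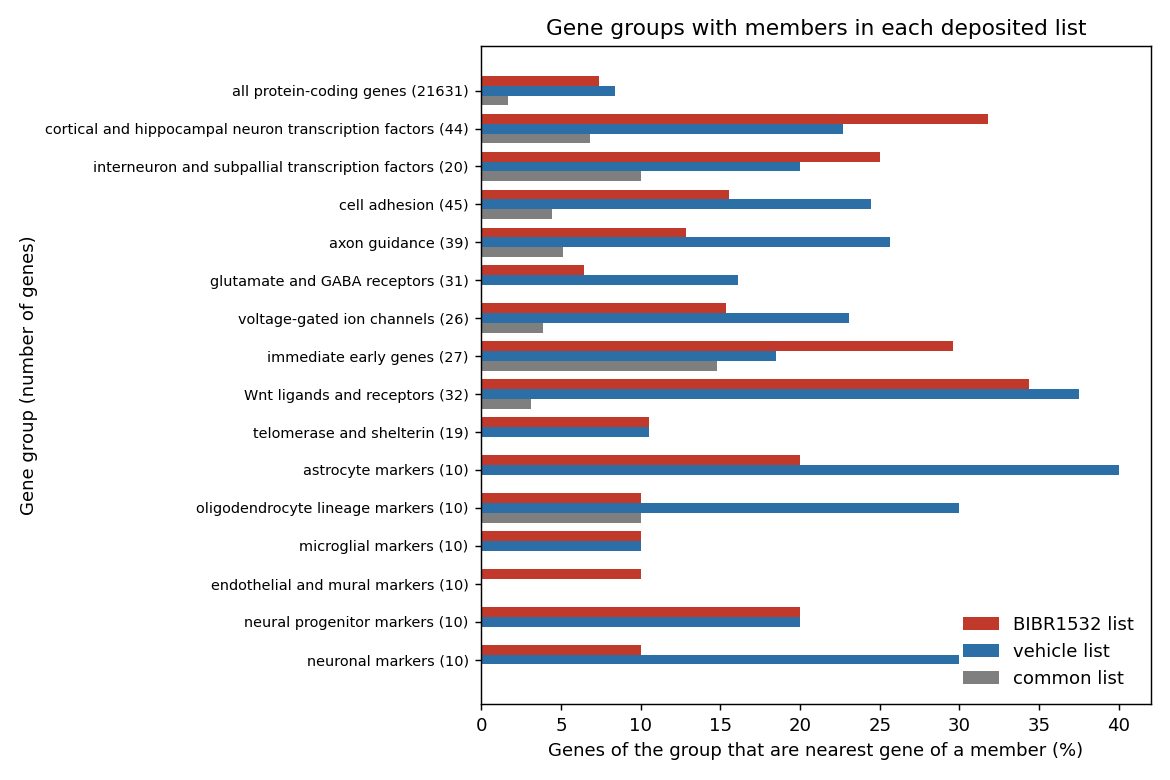
Share of the genes of each group (%) that are nearest gene of a BIBR1532, vehicle or common member, with the number of genes in parentheses and all protein-coding genes at the top. Of the cortical and hippocampal neuron transcription factors 31.8% have a BIBR1532 member, against 22.7% with a vehicle member, and of the axon guidance genes 12.8% against 25.6%. Over all protein-coding genes these shares are 7.38% and 8.4%, and the differences between groups were not tested.

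Markers of other cells that such a culture can hold had members as well. Astrocyte markers had 3 BIBR1532 members and 4 vehicle members at 5 of 10 genes (58.3 kb, 7.60 per 1000 kb). Fgfr3 had 2 BIBR1532 members and 1 vehicle member, Aldh1l1 had 1 BIBR1532 member, and Aqp4, Slc1a2 and Slc1a3 had 1 vehicle member each. Oligodendrocyte lineage markers had 1 BIBR1532, 8 vehicle and 1 common member at 4 of 10 genes (72.0 kb). Olig1 had the BIBR1532 member and 3 of the vehicle members, and its neighbour Olig2 had 4, so this split is mostly that of 1 locus. Microglial markers had 1 and 1 at 2 of 10 genes (40.5 kb, 4.67 per 1000 kb), endothelial and mural markers 1 BIBR1532 member at Kdr, neural progenitor markers 2 and 2 at 4 of 10 genes (146 kb, 3.08 per 1000 kb), and neuronal markers 1 and 3 at 4 of 10 genes (127 kb, 3.48 per 1000 kb). These regions are DNA sites and show no cell type.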

How the data were processed

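TERT CUT&Tag libraries of 3 BIBR1532 and 3 vehicle samples took their groups from the doses that the titles give. Among tools, MACS2 2.1.2, Bowtie2, Picard and CASAVA 1.8 are named without roles in the submitters' processing notes, as is the build, mm10. Regions were annotated with annotatePeaks.pl, per the file headers. The deposited lists pool the 3 libraries of each condition. The form of their names fits the bdgdiff step of MACS2, which was inferred. The score of each region is the authors' deposited value and was used within a list only. Other deposited columns give position, class, nearest gene and distance as the authors' annotation has them. The lists carry no depth, so it is unknown.

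Regions on chromosomes 1 to 19 and X were read with pandas 2.3.3, and tests were run with scipy 1.17.1. Distances between regions are counted from edge to edge. Fisher's exact tests (two-sided) compare deposited lists, exact Clopper-Pearson intervals are at 95%, and intervals of odds ratios are Wald intervals. All cover counting error only, and nearby regions are not independent. The tests were run on simulated lists first. RefSeq tables of GRCm38.p6, the build that mm10 names, gave genes and promoter windows. Windows of chromosome 18 were not used here, so tests on start sites leave it out.

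GC content and motifs of the regions themselves were planned and not run, since no genome was used here, and windows about RefSeq start sites took their place. The members and gene lists were chosen with earlier results of these data known. The tests on RefSeq genes, pseudogenes and tRNA genes were chosen after seeing the data. Named regions are the 5 of highest score and the 3 widest of each list. Named genes are the 5 with the most members in each list, the 5 of largest excess in each direction, at most 4 per gene list, and Tert, Terc and Myc. Not all are described, and some items that the rule takes are not reported here. Pseudogenes, tRNA genes and promoter windows named outside this rule were chosen after their values were seen. Alternatives removed the most frequent scores, low scores, short regions or distant members, merged regions, or kept repeats.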

Additional observations from a re-analysis of the deposited data

How the results depend on the processing

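The excess of common members on pseudogenes and tRNA genes, and the lower share of common regions among members than elsewhere, kept their direction and their side of the threshold under each alternative run for them. The odds ratio for pseudogenes ranged over these alternatives from 9.76 to 18.0 and that for tRNA genes from 12.3 to 25.7. For an overlap with any RefSeq gene, the odds ratio was 1.36 (exact p = 0.0522) with protein-coding genes alone and 1.07 (exact p = 0.601) with lncRNA genes alone, Fisher's exact test. Both counts kept members on pseudogenes and small RNA genes, so neither bears on the excess found without such members. Results on the BIBR1532 share moved more. The odds ratio within 10 kb was 1.11 without the most frequent scores and 0.928, the other direction, in members of at least 500 bp. The odds ratio of the BIBR1532 share against other regions was 0.813 (exact p = 0.00588) at 500 bp or more and 1.01 for members within 50 kb. The odds ratio of upstream position was 0.988 without the most frequent scores and 0.969 at 500 bp or more, below 1 where the value over all members is above it. The odds ratio of proximity to the other list was 0.156 at 500 bp or more and 1.01 at a neighbour distance of 200 bp. The odds ratio of members of at least 500 bp, BIBR1532 over vehicle, was 0.802 (exact p = 0.0239) without the most frequent scores. The odds ratio of members at the score most often given was 0.985 within 50 kb, and that of a protein-coding nearest gene 1.16 (exact p = 0.0491) within 50 kb. The cause was not tested for any of these. In all, 49 of the values kept direction and side, 6 reversed, 3 passed the threshold and 4 no longer did. Windows of 200 bp and 500 bp about region centres were not run. No paired analysis was possible because the lists pool the libraries that carry the replicate numbers, and for the same reason no library could be left out. Depth is unknown, so nothing is said on regions missed in either pool.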
